A study of Mus musculus with 26 samples.

Results

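CD11b+ dendritic cells (DCs) sorted from the lungs of wild-type (WT) mice were compared with CD11b+ DCs sorted from WT spleens. The 5 libraries were chosen by their labels: 3 from lung (numbers 9, 10 and 11 in the series) and 2 from spleen (5 and 6), out of 26. All 5 came from wild-type littermates of mice labelled mTOR ΔAPC, a name read here as a loss of the kinase mTOR from antigen-presenting cells (the labels give no driver of the deletion). All 5 were labelled steady state, so neither group had been given allergen. The other libraries held spleen CD8a DCs, alveolar macrophages, inflammatory DCs from lungs given house dust mite extract, and the mTOR ΔAPC counterpart (KO) of every population. The labels give neither the sorting gates beyond CD11b, nor ages, nor the strain, nor how tissues were dissociated, nor whether libraries of a group came from separate mice, so the p-values measure the spread between libraries, which may be technical. Expression is given as normalized counts, that is reads divided by a size factor per library, and a gene's difference is lung minus spleen on the scale of log2(normalized count + 1), with its standard error.

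DCs sample antigen in tissues and show it to T cells. The CD11b+ subset, also called conventional type 2 DCs (cDC2), develops from bone marrow precursors under the growth factor FLT3 ligand and the transcription factor IRF4. In the spleen many of these cells need Notch2 signals and carry the surface proteins ESAM, CD4 and DCIR2 (encoded by Clec4a4), whereas in the lung they lie beneath the airway epithelium and among the alveoli, are prone to support type 2 responses, and share CD11b with monocyte-derived cells.

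The 5 libraries held 9.11 to 11.5 M counted reads, with 13173 to 14407 genes above 0. Across the 12065 genes tested, the log2 values of spleen libraries 5 and 6 correlated at 0.9734 and those of lung libraries 9 and 10 at 0.9717. Lung library 11 correlated with 9 and 10 at 0.9324 and 0.9328, and 872 genes were more than 2-fold lower in it than in both of the others. Between tissues the correlations were 0.8244 to 0.8344. All 5 libraries had the sex-linked reads of females, with Xist between 3573 and 5058 and a sum over 4 Y-linked genes of at most 1.61.

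Of the 12065 genes, 4593 (38.1%) differed between the tissues at an adjusted p below 0.05. They were split into 2773 (23%) higher in lung and 1820 (15.1%) lower in lung. The difference exceeded 2-fold in 2405 of the called genes (19.9%), of which 1657 were higher and 748 lower in lung. Without lung library 11 the counts were 2823 higher and 1718 lower, and 4001 of the 4593 genes kept their call and sign. Without spleen library 6, 2129 were higher and 1038 lower. Libraries of the tissues did not overlap for 3627 genes whose 3 lung values were above both spleen values (30.1%) and for 3269 genes whose lung values were all below (27.1%). Genes named from a list are the called members with the smallest p unless said otherwise, so the gap between their lung and spleen values follows from the choice and is given as a description.

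**Figure D1:**
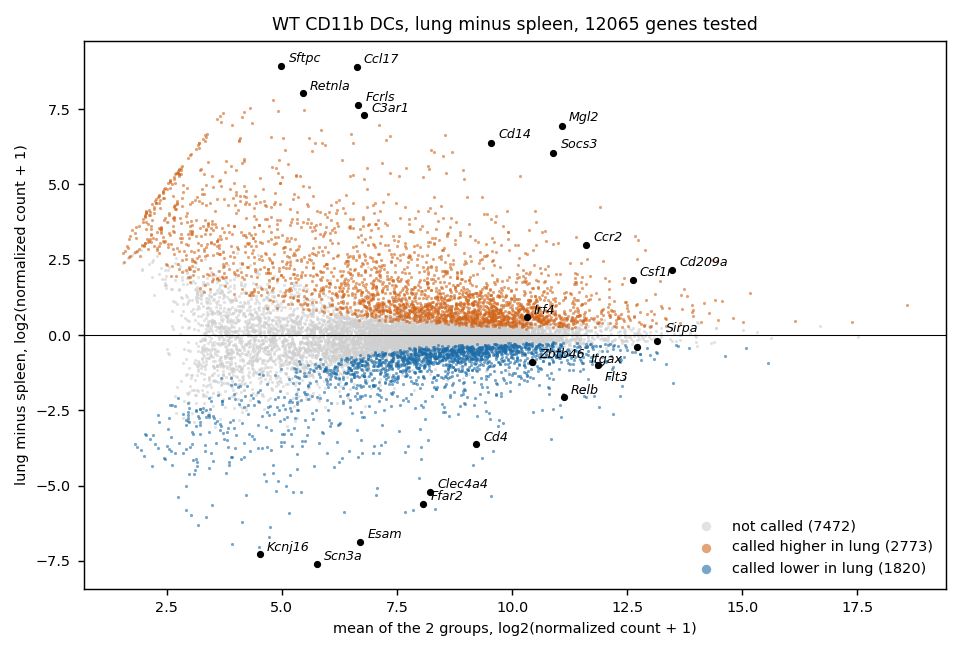
Lung minus spleen difference (y axis, log2(normalized count + 1)) against the mean of both groups (x axis, same scale) for the 12065 genes tested in WT CD11b DCs; orange and blue points are the 2773 genes called higher and the 1820 called lower in lung, black points are named genes. Mgl2, Socs3 and Cd14 lie above 6 at high mean levels, and Clec4a4, Ffar2, Esam, Kcnj16 and Scn3a lie below -5.

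The libraries were first set against the label. Genes that define conventional DCs were present in all 5 libraries, and several were lower in lung. Zbtb46, a transcription factor restricted to conventional DCs among myeloid cells, had 1978 and 1742 normalized counts in spleen and 1153, 1233 and 713 in lung, a difference of -0.88 ± 0.31 (limma, adjusted p = 0.0254). That call was lost without lung library 11 (adjusted p = 0.119), without spleen library 5 (0.143) or 6 (0.0752), and with library weights (0.0751). In WT alveolar macrophages the mean of Zbtb46 was 28.4, and in inflammatory DCs it was 97. Flt3, the receptor for FLT3 ligand, had 5700.1 and 4682 in spleen and 3066, 3053 and 1844 in lung, with no overlap. Its difference of -1.0 ± 0.40 missed the threshold (adjusted p = 0.0524), although 7 alternative analyses called it. Itgax, which encodes CD11c, had 8144 and 7200.3 in spleen and 6281, 6628 and 4873 in lung (difference -0.38 ± 0.13, adjusted p = 0.0197), a call that was lost without lung library 11 (adjusted p = 0.113) or spleen library 5 (0.181), and over the WT libraries (0.0502) or these 5 libraries alone (0.0827). Of the 26 genes of DC identity, all tested, 6 were higher and 11 lower, with a median of -0.405 against 0.00628 over all genes. The share higher (23.1%) was near the 23% over all genes tested, and the share lower was 42.3% against 15.1%. Without lung library 11, 9 were lower and the median was -0.323.

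Among these, Kit, the stem cell factor receptor, was lower in lung (5699 and 4514 in spleen, 1334, 952 and 369 in lung, difference -2.71 ± 0.45). Ciita, the master regulator of MHC class II transcription, was lower in lung (difference -1.14). Cd24a, a surface sialoglycoprotein, was higher in lung by 2.47. Cd74, the class II invariant chain, was higher by 1.01 and the peptide loader H2-DMb1 by 1.08. The class II chain H2-Ab1, named after its values were seen, had 139860 and 152580 normalized counts in spleen and 212010, 202340 and 178350 in lung (difference 0.43 ± 0.17, adjusted p = 0.0439). The class II-related genes H2-Oa (-1.39) and H2-Ob (-1.21), also named after their values were seen, were lower in lung. These genes thus went in both directions, and what that means for antigen presentation was not tested.

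The genes used to recognise cDC2 split between the tissues. Sirpa, which encodes the inhibitory receptor SIRPα of all cDC2, had 9622 and 9781 in spleen and 8546, 8720 and 8218 in lung, and did not pass the test (difference -0.19 ± 0.15, adjusted p = 0.34). Irf4 had 1181 and 903 in spleen and 1792, 1364 and 1524 in lung, with no overlap. It was not called (difference 0.59 ± 0.37, adjusted p = 0.226), although the fit to these 5 libraries alone called it higher in lung (adjusted p = 0.0261). Itgam, which encodes CD11b itself, was 1585 and 1867 in spleen and 5931, 5533 and 5379 in lung, with every lung library above every spleen library (difference 1.70 ± 0.28, adjusted p = 3.73e-05). Over the 27 cDC2 genes, 13 were higher and 8 lower in lung, with a median of 0.52.

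Mgl2, the galactose-binding lectin CD301b (chromosome 11, positions 70130329 to 70137550 of GRCm38), had 206 and 182 normalized counts in spleen and 24794, 22741 and 23929 in lung. The 3 lung values lay within a narrow band more than 100-fold above the spleen values, a difference of 6.93 ± 0.30 (adjusted p = 1.77e-14). Cd209a, a homologue of the human lectin DC-SIGN (chromosome 8, positions 3743397 to 3748984), had 5965 and 4802 in spleen and 26777, 24081 and 21723 in lung (difference 2.17 ± 0.41, adjusted p = 0.000187). Both lectins were far lower in the other WT populations. The means of Mgl2 were 24.5 in spleen CD8a DCs, 251 in alveolar macrophages and 2295 in DCs of the allergen-treated lungs. Those of Cd209a were 1139, 266 and 537 in the same order.

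The markers of Notch2-dependent spleen DCs went the other way. Clec4a4 (chromosome 6, positions 122990367 to 123024105), which encodes DCIR2, had 1659 and 1982 in spleen and 50.9, 45.5 and 48.4 in lung (difference -5.20 ± 0.38, adjusted p = 2.02e-10). Esam (chromosome 9, positions 37528078 to 37538319), an adhesion molecule, had 896 and 753 in spleen and 22.8, 13.7 and 0 in lung (difference -6.87 ± 1.16, adjusted p = 5.18e-05). Cd4 fell from 1890.5 and 2263 in spleen to 156, 149 and 198 in lung (difference -3.63 ± 0.42). No lung library reached the level of a spleen library for any of these 3 genes. Dtx1, a Notch target and modulator named after its values were seen, had 2309.5 and 2375 in spleen and 40.1, 37 and 50.8 in lung (difference -5.76 ± 1.03). The lymphotoxin gene Ltb (-3.03) and the transcription factor Tbx21 (-3.16), named in the same way, were lower as well.

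The receptors and transducers of the Notch pathway did not follow its spleen marker genes. Notch2 had 656 and 508 in spleen and 1043, 978 and 988 in lung, so that each lung library was above each spleen library (difference 0.80 ± 0.14, adjusted p = 0.000122). Notch1 was 26 and 12.7 in spleen and 284, 240 and 479.7 in lung (difference 4.06 ± 0.31). Rbpj, the DNA-binding partner of cleaved Notch, was higher in lung by 2.04, and the deltex family member Dtx4 by 2.32. Of 27 tested genes of the Notch list, which includes the spleen markers, 12 were higher and 4 lower with a median of 0.44. The 4 lower genes were Cd4, Clec4a4, Dtx1 and Esam.

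**Figure D2:**
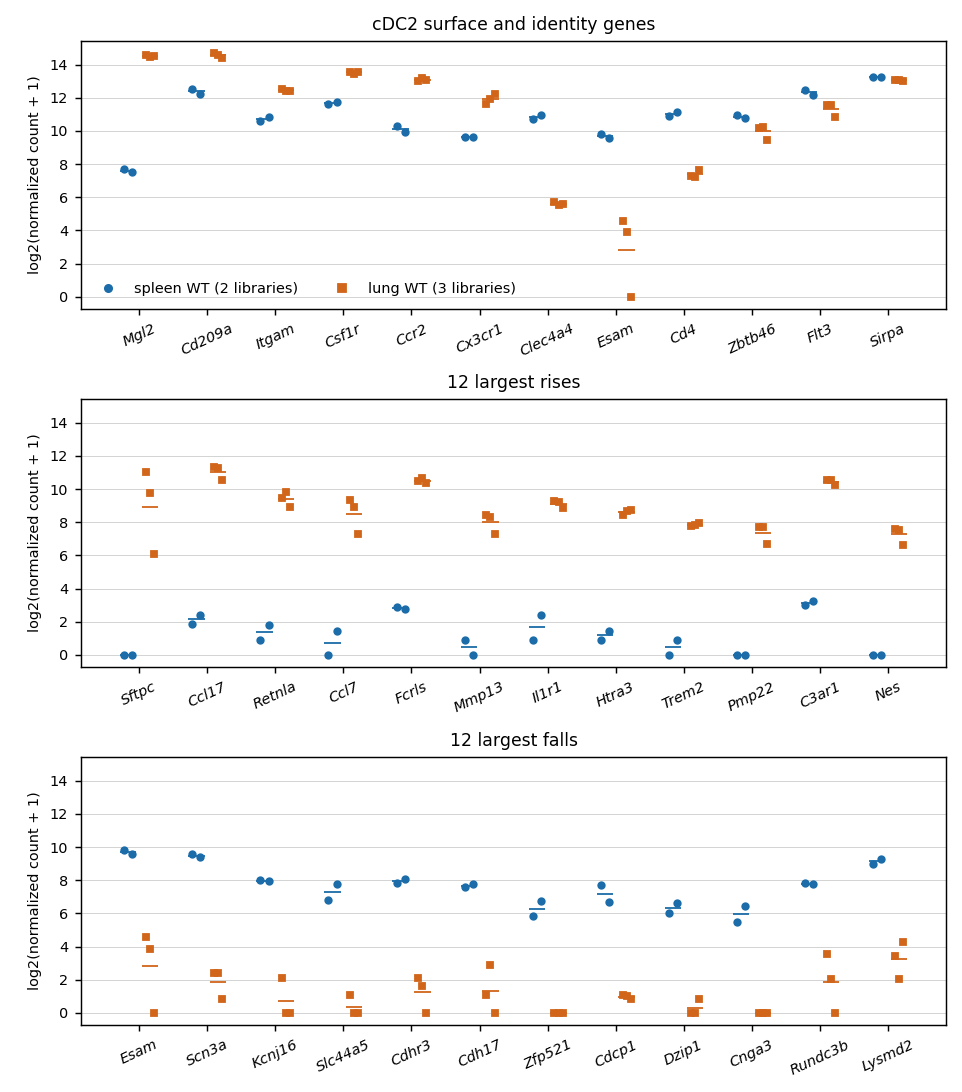
Level of each gene, as log2(normalized count + 1) on the y axis, in the 2 spleen (blue circles) and 3 lung (orange squares) WT libraries, left to right in order of library number, with group means as lines; the panels hold cDC2 and DC genes, the 12 largest rises and the 12 largest falls. Spleen and lung points do not overlap for any gene shown, which for the largest rises and falls follows from how they were chosen. Over all genes tested, every lung value was above both spleen values in 30.1% and below both in 27.1%. Mgl2 and Esam lie at opposite ends, and Sftpc spreads from 2088 to 66.1 normalized counts between the lung libraries.

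Receptors for monocyte and macrophage growth and homing factors were higher in lung. Csf1r, the receptor for CSF-1, had 3116 and 3509 in spleen and 12159, 11266 and 12185 in lung (difference 1.84 ± 0.14, adjusted p = 3.61e-10). Ccr2, the chemokine receptor that brings monocytes and DC precursors out of the marrow, had 1258 and 962 in spleen and 8230.1, 9499 and 8577 in lung (difference 2.99 ± 0.19, adjusted p = 1.41e-11). Cx3cr1, the fractalkine receptor, had 779.7 and 783 in spleen and 3115, 3820.2 and 4797 in lung (difference 2.3 ± 0.25). For all 3 genes the groups did not overlap. The GM-CSF receptor chains Csf2ra and Csf2rb rose less, by 1.21 ± 0.09 and 0.52 ± 0.09. Of 42 growth factor and cytokine receptor genes, 22 were higher and 4 lower (median 0.735), including the IL-33 receptor Il1rl1 (18.8 and 5.08 in spleen, 1677, 1733 and 928 in lung, difference 6.99 ± 0.58) and the IL-36 receptor Il1rl2 (difference 6.36 ± 0.48).

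Of 28 markers of monocytes and macrophages, 22 were higher and 1 lower in lung, with a median of 2.71. Their summed level was 37956 and 43140 in spleen and 158130, 152310 and 166400 in lung. Cd14, the endotoxin co-receptor, had 67.3 and 92.3 in spleen and 8638, 8155 and 4083 in lung (difference 6.37 ± 0.23, adjusted p = 1.63e-15), lowest in library 11. Apoe, a lipid carrier, was higher by 3.16, and Lyz2, the myeloid lysozyme named after its values were seen, had 7399 and 11882 in spleen and 48302, 46159 and 59394 in lung. Fcgr1, which encodes the monocyte marker CD64, had 7.18 and 22 in spleen and 206, 144 and 378 in lung. Mertk, a macrophage receptor for dying cells, had 19.7 and 67.7 in spleen and 204, 112 and 64.5 in lung. Its value in lung library 11 was below that in spleen library 6, so the tissues overlapped. Fcgr1 and Mertk were named after their values were seen. In these bulk libraries more cells of another type and more RNA per DC cannot be told apart, and the part of monocyte-derived cells in the differences was not tested.

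Markers of cells that share the lung with DCs were also higher. Of 22 alveolar macrophage markers, 20 were higher and none lower (median 3.4), with sums of 1945 and 2271 in spleen and of 18384, 17775 and 13979 in lung, against 462000 to 474000 in the WT alveolar macrophage libraries. Their level in lung DCs was at a median of 1.94% of that in alveolar macrophages. It was 0.669% for the keratin Krt79, 0.672% for the ribonuclease Ear1 and 2.11% for the lectin Siglec5, a receptor of alveolar macrophages and eosinophils. The shares reached 31.7% for the lipid chaperone Fabp4 and 19.4% for the mannose receptor Mrc1, and 17 of the 22 were under 10% (Krt79, Ear1 and Fabp4 were named after their values were seen).

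Sftpc, the surfactant protein C gene of alveolar type 2 epithelium, was at 0 in both spleen libraries and at 2088, 852 and 66.1 in lung, at least 693-fold higher against a floor of 3 reads over the spleen libraries. Library 9 was far above library 11 in this gene, and the mean in WT alveolar macrophages was 54. Of 25 epithelial genes 15 passed the filter, 11 of them higher and none lower (median 4.06, or 4 with genes at 0 set to their bound). The sums over all 25 were 1076 and 1098 in spleen and 5696, 3697 and 1994 in lung. Of the 15, 7 were at 0 in both spleen libraries, so they passed only through lung and could not be lower there. Among them the club cell secretoglobin Scgb1a1 was 480-fold (95% counting interval 85.8 to 19000) higher. The adhesion gene Cdh1, which DCs can also transcribe, had 2.69 and 8.46 in spleen and 681, 579 and 302 in lung.

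Of 22 stromal genes 12 passed the filter, 11 of them higher and none lower. The sums over all 22 were 18.8 and 49.1 in spleen and 523 to 659 in lung. Of the 12, 6 were at 0 in both spleen libraries, so they passed only through lung and could not be lower there. The collagens Col1a1 and Col3a1 were at 0 in spleen and reached 36.8, 28.5 and 30.6 and 56.3, 40.2 and 38.7 in lung, and Inmt, a methyltransferase of lung stroma, 164, 141 and 129. Of 18 T cell genes, 12 were higher and none lower (median 2.3). The T cell sums were 1160 and 956 in spleen and 1682, 2077 and 2925 in lung, and the T cell receptor chain Cd3e had 11.7 and 8.46 in spleen and 66.1, 105 and 147 in lung. B cell genes were higher in spleen in 5 of 17 cases and in lung in 1 (1 higher in spleen without spleen library 6, and 3 without spleen library 5 or lung library 9), with sums of 4694 and 4695 in spleen and 1451, 1460 and 2200.0 in lung. Of 19 genes of CD8a-type DCs (cDC1), 5 were higher and 3 lower (26.3% and 15.8%), near the 23% and 15.1% over all genes tested. How much RNA of these cells contributes to the DC differences was not tested.

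For the remaining marker lists the counts were small, beside shares of 23% higher and 15.1% lower over all genes tested. Of 14 markers of red pulp macrophages, which recycle iron in the spleen, 5 were higher and 6 lower (2 lower without spleen library 6), with a median of -0.636 that became -0.283 without that library and -0.364 without lung library 11. Slc40a1, the iron exporter, was lower (856 and 1219.7 in spleen, 40.1, 111 and 42.7 in lung) and Axl, a receptor for dying cells, higher (336 and 466 in spleen and 6236, 5702 and 4194 in lung). Called higher and lower were 2 and 1 of 13 plasmacytoid DC genes, 3 and 1 of 14 NK and innate lymphoid genes, 3 and 2 of 10 neutrophil genes (1 and 1 without spleen library 6, and 4 lower without lung library 11, where the median turned from 0.119 to -0.457), and 1 and 3 of 4 eosinophil, basophil and mast cell genes. They were 7 and 1 of 15 endothelial genes (4 higher without spleen library 6 or lung library 9, 11 without lung library 11), 0 and 1 of 2 erythroid genes and 2 and 0 of 3 platelet genes. The platelet chemokine Pf4 had 4.49 and 1.69 in spleen and 202, 199.8 and 151 in lung.

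**Figure D3:**
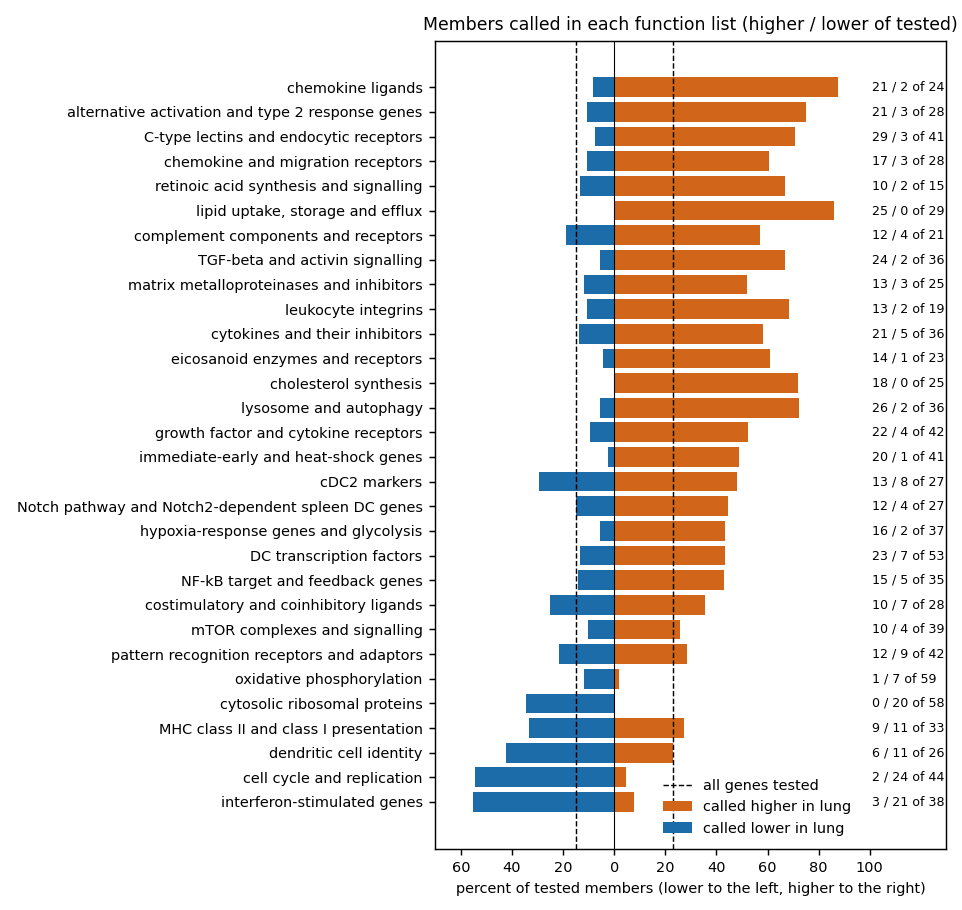
Percent of the tested members of each of 30 function lists called higher in lung (orange, right) or lower in lung (blue, left), ordered by the median difference; numbers at the right give members higher, lower and tested, and dashed lines mark 23% higher and 15.1% lower over all genes tested. Chemokine ligands (21 of 24 higher) stand at the top, and interferon-stimulated genes (21 of 38 lower) and cell cycle genes (24 of 44 lower) at the bottom.

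The small counts of lower members rested on single libraries in several lists. With spleen library 6 left out they went from 4 to 2 for growth factor and cytokine receptors, from 3 to 1 for matrix proteases, from 2 to 1 for TGF-β signalling, chemokine ligands and retinoic acid genes, and from 2 to 0 for hypoxia and lysosomal genes. Without lung library 11 they went from 3 to 1 for matrix proteases and from 2 to 1 for TGF-β signalling, integrins, retinoic acid and hypoxia genes.

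Chemokine ligands had the largest median difference of the 30 function lists. Of 35 ligands 24 passed the filter, and 7 of the 35 were at 0 in all 5 libraries. Of the 24 tested, 21 were higher in lung and 2 lower, with a median of 4.11 (3.91 with genes at 0 set to their bound). Ligands near 0 in spleen entered only where lung was higher (3 of the 24 were at 0 in spleen). The median and its rank thus depend in part on the filter. Ccl17 (chromosome 8, positions 94810453 to 94812036), a ligand of CCR4 that draws type 2 helper and regulatory T cells, had 2.69 and 4.23 normalized counts in spleen and 2578, 2438 and 1505 in lung (difference 8.91 ± 0.47, adjusted p = 5.79e-13). Ccl22, the other CCR4 ligand, had 165 and 199.8 in spleen and 8531, 8084 and 5017 in lung (difference 5.26 ± 0.27). The monocyte attractants Ccl2 (15.3 and 14.4 in spleen, 2069, 1542 and 869 in lung, difference 6.47 ± 0.38) and Ccl7 (637, 487 and 158 in lung) followed. Ccl7 rested on 2 reads in spleen, a ratio of 460-fold (95% counting interval 127 to 3800). Cxcl3, a neutrophil attractant, was at 0 in spleen and at least 21.9-fold higher in lung (33.6, 34.9 and 20.2). Lung library 11 held the lowest lung value of each of these 5 genes, and no lung value overlapped the spleen. The 2 lower genes, named for that reason, were Ccl5 (2935 and 3642 in spleen, 1070.3, 858 and 953 in lung, difference -1.77 ± 0.26) and Cxcl9 (difference -1.34 ± 0.48), both attractants of activated T cells.

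Receptors that guide leukocyte movement rose in 17 of 28 cases and fell in 3 (median 1.94). C3ar1, the receptor for the complement fragment C3a, had 7.18 and 8.46 in spleen and 1483, 1472 and 1212 in lung (difference 7.30 ± 0.56, adjusted p = 3.93e-10). Ccr1 had 122 and 48.2 in spleen and 3429.9, 3007 and 2123 in lung (difference 5.17 ± 0.25), and C5ar1, the C5a receptor, 19.7 and 28.8 in spleen and 1311, 1038 and 829 in lung (difference 5.39 ± 0.54). The lung values of all 3 receptors were lowest in library 11. Ccr7, which takes DCs to lymph nodes and was named after its values were seen, was 2850.5 and 2162 in spleen and 3670.4, 3692 and 2398 in lung, not called (difference 0.36 ± 0.27, adjusted p = 0.309). Ccr6, named in the same way, had 421 and 633 in spleen and 53.1, 28.5 and 23.4 in lung (difference -3.93 ± 0.63). Among genes of migratory mature DCs, 7 of 22 were higher and 3 lower, a median of 0.216 (0.0711 without spleen library 6). Their shares were 31.8% and 13.6%, against 23% and 15.1% over all genes tested.

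Adhesion genes moved with them. Of 19 integrin chains 13 were higher and 2 lower (median 1.25). Itga5, the fibronectin receptor chain, had 104 and 107 in spleen and 1606, 1679 and 1425 in lung, one of the 2 smallest p-values of all genes (difference 3.88 ± 0.13, adjusted p = 4.41e-16). Itgb5 was higher by 3.88 and Itgb1 by 1.25, while Itgad, the αD chain, was lower (difference -3.54). Itgae, which encodes CD103, was 23.3 and 1.69 in spleen and 116, 146 and 93.5 in lung. Of 25 matrix proteases and inhibitors 13 were higher and 3 lower (median 1.41), among them Timp2 (59.2 and 77 in spleen and 1234, 1441 and 938 in lung), Adam15 (difference 3.31 ± 0.18) and the collagenase Mmp13, with 1 read in spleen and 342, 319 and 154 in lung.

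TGF-β, a cytokine that lung and gut epithelium activate through integrins, has receptors and feedback genes that were higher in lung. Of 36 genes of TGF-β and activin signalling 24 were higher and 2 lower, with a median of 1.66. The receptor Tgfbr1 had 989 and 767 in spleen and 3946, 3738 and 2769 in lung (difference 1.98 ± 0.16), and the related receptor Acvrl1 130.1 and 149.8 in spleen and 973, 829 and 822 in lung (difference 2.63 ± 0.16). Pmepa1, a target gene that dampens the pathway, had 0.897 and 4.23 in spleen and 285, 269.6 and 321 in lung (difference 6.53 ± 0.36, adjusted p = 1.18e-12). Library 11 held the lowest lung value of Tgfbr1 and the highest of Pmepa1. Tgfb1 itself was 1135 and 725 in spleen and 2128, 2063 and 2509 in lung (difference 1.29 ± 0.15). Furin, a protease that matures TGF-β, rose by 2.46 and the co-repressor Ski by 2.13. The 2 lower genes, named for that reason, were the shared transducer Smad4 (-0.63) and the matrix protein Ltbp2 (-3.04).

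Cytokine genes were mostly higher, 21 of 36, with 5 lower (3 without lung library 11, without either spleen library, and at a minimum of 50 counts). Osm, oncostatin M, had 60.1 and 57.6 in spleen and 1269.7, 919 and 607 in lung (difference 3.90 ± 0.30). Il1a had 7.18 and 26.2 in spleen and 560.1, 379.6 and 244 in lung, and Tnfsf13b, the B cell survival factor BAFF, 17.9 and 15.2 in spleen and 247, 329.9 and 303 in lung. Il6, an inflammatory cytokine named after its values were seen, was 3.59 and 6.77 in spleen and 147, 125 and 77.4 in lung (difference 4.25 ± 0.61, adjusted p = 6.64e-06). Osm, Il1a and Il6 were lowest in library 11 among the lung libraries, and Tnfsf13b was not. Il1r1, the receptor for IL-1, rose from 0.897 and 4.23 to 619, 595 and 468 (difference 7.47 ± 0.42, adjusted p = 1.71e-12).

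Socs3, a suppressor of cytokine signalling induced through STAT3 by cytokines such as IL-6 and IL-10, had 272 and 197 normalized counts in spleen and 17356, 15056 and 13587 in lung. That was the other of the 2 smallest p-values (difference 6.04 ± 0.20, adjusted p = 4.41e-16). Cish, a related suppressor induced through STAT5 by GM-CSF and related cytokines, had 4.49 and 4.23 in spleen and 803, 619 and 422 in lung (difference 6.79 ± 0.30, adjusted p = 2.60e-14). All lung libraries lay more than 10-fold above all spleen libraries for both. Socs3 was also high in WT inflammatory DCs (mean 7814) but not in alveolar macrophages (511) or spleen CD8a DCs (68.9).

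The promoters of Socs3, Cish and Ccl17 are shown because the letters that STAT proteins bind, TTCNNNGAA, stand in each. They are RefSeq sequences of GRCm38.p6, 250 bases before to 50 after the listed start, at chr11:117969317-117969616 on the minus strand, chr9:107296409-107296708 on the plus strand and chr8:94810203-94810502 on the plus strand. Capitals mark TTCNNNGAA, whose reverse complement reads the same.
Socs3: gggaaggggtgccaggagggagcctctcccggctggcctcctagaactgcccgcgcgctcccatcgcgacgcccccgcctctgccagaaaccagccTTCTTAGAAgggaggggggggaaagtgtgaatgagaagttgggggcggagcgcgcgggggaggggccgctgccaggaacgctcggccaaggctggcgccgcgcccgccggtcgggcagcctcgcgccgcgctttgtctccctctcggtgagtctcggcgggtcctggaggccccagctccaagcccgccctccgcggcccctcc
Cish: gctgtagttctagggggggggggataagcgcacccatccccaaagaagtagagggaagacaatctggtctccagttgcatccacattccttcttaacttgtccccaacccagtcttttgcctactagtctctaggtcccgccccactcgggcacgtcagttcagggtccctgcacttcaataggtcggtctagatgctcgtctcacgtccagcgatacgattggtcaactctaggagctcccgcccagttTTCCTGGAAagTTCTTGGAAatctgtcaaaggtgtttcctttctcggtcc
Ccl17: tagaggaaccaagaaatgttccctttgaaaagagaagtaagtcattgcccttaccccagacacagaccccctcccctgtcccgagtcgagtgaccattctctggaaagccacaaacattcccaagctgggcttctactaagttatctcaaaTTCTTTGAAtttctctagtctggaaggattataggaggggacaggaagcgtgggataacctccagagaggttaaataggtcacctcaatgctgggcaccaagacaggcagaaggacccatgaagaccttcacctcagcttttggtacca
Cish held 2 matches and the other genes 1 each. Such a match was present in 7.01% of the 9708 tested genes with a promoter sequence, in 5.64% of those higher in lung and in 7.73% of those lower in lung, a share in the higher genes below that over all promoters.

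Immediate-early genes, which cells switch on within minutes, and heat-shock genes were higher in 20 of 41 cases and lower in 1, with a median of 0.567. In the fit without spleen library 6, 13 were higher and 3 lower. Fosl2, an AP-1 subunit, had 284 and 203 in spleen and 3285, 2306 and 1478 in lung (difference 3.21 ± 0.28) and Jund 2471 and 1758 in spleen and 5228, 4720 and 5805 in lung (difference 1.33 ± 0.14). Cyr61, a matricellular signalling gene, was at 0 in spleen and at 124, 134 and 38.7 in lung. Hsp90aa1, a heat-shock chaperone, was the lower gene (2439 and 2451 in spleen and 1476, 1112 and 1268 in lung). Fos had 12727 and 10560 in spleen and 22666, 19955 and 19531 in lung, whereas Egr1 (8558 and 8366 in spleen, 10816, 8472 and 8624 in lung) and Jun (18471 and 16789 in spleen, 15293, 14193 and 15114 in lung) were not called (all 3 named after their values were seen). The labels do not describe how either tissue was dissociated, and the part of cell isolation in these genes was not tested.

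Targets and brakes of NF-κB were higher in 15 of 35 cases and lower in 5, with a median of 0.289. Without spleen library 6, 9 were higher (median 0.163), without lung library 9, 8 were lower, and without lung library 11 the median was 0.568. Tnip3, an inhibitor of NF-κB signalling, had 52.9 and 36.4 in spleen and 3983, 2763 and 1943 in lung (difference 5.95 ± 0.30, adjusted p = 4.00e-13). Tnfaip2 rose from 206 and 141 to 844, 632 and 472. Relb, the NF-κB subunit that spleen cDC2 need, went the other way, from 4666 and 4444 in spleen to 1205, 1053 and 1004 in lung (difference -2.07 ± 0.15, adjusted p = 1.01e-10).
The promoter of Tnip3 (chr6:65590148-65590447, plus strand, GRCm38.p6, RefSeq) is shown for its match to the NF-κB letters GGGNNTTCC, read here on the opposite strand and set in capitals.
Tnip3: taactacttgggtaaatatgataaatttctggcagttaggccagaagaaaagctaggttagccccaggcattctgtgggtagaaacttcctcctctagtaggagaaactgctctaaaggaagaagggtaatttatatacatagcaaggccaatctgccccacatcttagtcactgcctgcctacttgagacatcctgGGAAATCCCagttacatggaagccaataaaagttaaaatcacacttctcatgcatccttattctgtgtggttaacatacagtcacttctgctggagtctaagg
These letters, on either strand, stood in 7.3% of all tested promoters, in 6.68% of those of genes higher in lung and in 8.07% of those lower, and in 9 of 28 promoters of this list.

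Of 42 pattern recognition receptors and adaptors, the sensors of microbes, 12 were higher and 9 lower in lung (28.6% and 21.4%), near the 23% and 15.1% over all genes tested. The median was 0.0408, and -0.0302 without lung library 11 and 0.00518 without spleen library 6. The receptors for bacterial lipids were among those higher: Tlr2 had 441 and 527 in spleen and 3729, 3328 and 2618 in lung (difference 2.72 ± 0.19) and Tlr4 96.9 and 86.3 in spleen and 465, 482 and 539 in lung (difference 2.42 ± 0.26). Irak3, a brake on Toll-like receptor signalling, rose by 2.67. Nod1, a sensor of cell wall peptides, fell from 2002 and 1975 to 519, 627 and 1081 (difference -1.49 ± 0.22). Tlr5, the flagellin receptor named after its values were seen, fell from 174 and 243 to 20.6, 26.4 and 32.2 (difference -2.94 ± 0.52).

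Interferon-stimulated genes were lower in lung. Of 38 tested, 21 were lower and 3 higher, against 15.1% and 23% over all genes, with a median of -0.793. Without spleen library 6, 12 were lower (median -0.658), and without lung library 11, 20. Ifit2, which encodes an antiviral RNA-binding protein, had 747 and 857 in spleen and 178, 247 and 179 in lung (difference -2.0 ± 0.33, adjusted p = 3.71e-05). Usp18, a brake on the interferon receptor, had 1086 and 1190 in spleen and 448, 480 and 331 in lung (difference -1.45 ± 0.29). The transducers of the interferon signal were also lower, with differences of -1.0 ± 0.22 for Stat2 and -0.92 ± 0.19 for Irf9.

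The promoters of Ifit1 and Ifit3, which were lower in lung, and of Gbp3, which was higher, are shown for the interferon-stimulated response element, searched as GAAA and GAAA with 2 bases of any kind between them on either strand. The 3 genes were named after their values were seen. They lie at chr19:34640639-34640938, chr19:34583279-34583578 and chr3:142559794-142560093 of GRCm38.p6, all on the plus strand and all from RefSeq. Capitals mark the element, which reads in reverse complement in each.
Ifit1: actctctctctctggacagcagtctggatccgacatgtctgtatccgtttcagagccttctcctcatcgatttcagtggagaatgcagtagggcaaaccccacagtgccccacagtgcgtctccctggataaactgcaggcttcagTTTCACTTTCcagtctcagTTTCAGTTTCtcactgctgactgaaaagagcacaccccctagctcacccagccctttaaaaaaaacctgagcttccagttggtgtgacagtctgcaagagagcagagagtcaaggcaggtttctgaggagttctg
Ifit3: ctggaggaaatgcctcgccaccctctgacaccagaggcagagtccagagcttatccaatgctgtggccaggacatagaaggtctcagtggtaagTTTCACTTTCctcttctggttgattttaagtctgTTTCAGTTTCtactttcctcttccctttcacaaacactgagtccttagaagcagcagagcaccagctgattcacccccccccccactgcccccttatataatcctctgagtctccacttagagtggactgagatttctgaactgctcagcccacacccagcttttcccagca
Gbp3: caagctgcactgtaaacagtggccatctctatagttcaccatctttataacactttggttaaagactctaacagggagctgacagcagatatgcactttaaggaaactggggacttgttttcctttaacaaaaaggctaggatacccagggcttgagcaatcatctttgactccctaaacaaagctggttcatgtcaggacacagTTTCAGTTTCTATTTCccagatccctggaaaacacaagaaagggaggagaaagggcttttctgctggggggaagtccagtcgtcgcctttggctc
Ifit1 had 233 and 337 in spleen and 124, 102 and 20.2 in lung (difference -2.12 ± 0.52), and Ifit3 344 and 529 in spleen and 126, 142 and 145 in lung (difference -1.63 ± 0.38). Gbp3, a guanylate-binding protein, had 144 and 183 in spleen and 283, 320.4 and 267 in lung (difference 0.83 ± 0.28). Each of the 3 promoters held 2 matches, which overlap in Gbp3. The element stood in 18 of 29 promoters of this list, of which 8 belonged to genes lower and 3 to genes higher in lung. It stood in 3.23% of all tested promoters, in 5.29% of those of genes lower in lung and in 2.8% of those higher.

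Genes of alternative activation, the programme that IL-4 and IL-13 induce in macrophages, were higher in 21 of 28 cases and lower in 3 (median 2.54). Retnla, the secreted protein RELMα, had 0.897 and 2.54 in spleen and 716, 915 and 472 in lung (difference 8.03 ± 0.70, adjusted p = 3.11e-09). Chi3l3, a chitinase-like protein abundant in alveolar macrophages, had 38.6 and 31.3 in spleen and 3325, 3817 and 1083 in lung, and its lung DC mean was 1% of that in alveolar macrophages. The mean of Retnla in alveolar macrophages was 14, below that in lung DCs, and in inflammatory DCs it was 3782. Ccl17, Mgl2, Cish and Il1rl1, given above, also belong to this list.

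Endocytic receptors rose in 29 of 41 cases and fell in 3 (median 2.09). Mrc1, the mannose receptor, had 127 and 134 in spleen and 3739, 3456 and 2429.7 in lung (difference 4.59 ± 0.17, adjusted p = 1.70e-15). The IgG receptors Fcgr2b (634 and 512 in spleen and 5605, 4876 and 4634 in lung) and Fcgr3 (113 and 189.6 in spleen and 2093, 1875 and 1701 in lung) were higher by 3.14 and 3.68. Clec5a, a lectin coupled to DAP12, rose by 4.37. Several genes of this list are neighbours of similar sequence (the Cd209, Clec4 and Fcgr families), and how reads shared between copies were assigned was not given.

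Complement genes were higher in 12 of 21 cases and lower in 4 (median 1.81), with 2 lower without spleen library 6 and 1 without lung library 11. The C1q chain C1qb had 345 and 654 in spleen and 5803, 5466 and 4206 in lung (difference 3.42 ± 0.32). Receptors and enzymes of eicosanoids, the lipid mediators of allergy and fever, were higher in 14 of 23 cases and lower in 1 (median 1.19). They included the leukotriene receptor Cysltr1 (100.5 and 77.9 in spleen and 1250.2, 1318 and 1157 in lung), the thromboxane synthase Tbxas1 (difference 3.22 ± 0.19) and the prostaglandin receptors Ptgir (3.62 ± 0.32) and Ptger4 (1.98 ± 0.25). The lung values of C1qb and Cysltr1 were lowest in library 11. Of 15 genes of retinoic acid synthesis and signalling, 10 were higher and 2 lower (median 1.87). Aldh1a2, the enzyme with which DCs make retinoic acid, had 41.3 and 78.7 in spleen and 557, 618 and 514 in lung (difference 3.28 ± 0.41), and the receptor Rara 153 and 131 in spleen and 685, 671 and 1212 in lung.

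Genes of lipid handling rose almost as a block. Among 29 such genes (uptake, storage and efflux) 25 were higher and none lower (median 1.85). Lpl, the lipase that releases fatty acids from lipoproteins, had 58.3 and 68.6 in spleen and 1602, 1759 and 1266 in lung (difference 4.57 ± 0.24). Plin2, the coat of lipid droplets, had 227 and 362 in spleen and 3176, 2779.8 and 3309 in lung, and Cd36, a fatty acid receptor, 401 and 243 in spleen and 2884, 3055 and 2559.5 in lung. Library 11 was lowest of the lung libraries in Lpl and Cd36 and highest in Plin2. Lrp1, the endocytic receptor for lipoproteins and protease complexes, had 508 and 492 in spleen and 5746, 6041 and 4902 in lung (difference 3.47 ± 0.12, adjusted p = 1.63e-15). The lung DC mean of Lpl was 4.58% of the alveolar macrophage mean.

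Cholesterol synthesis genes, which SREBP2 drives together, were higher in 18 of 25 cases and lower in none (median 0.826). Without spleen library 6, in which several of these genes were lower than in library 5, 9 were higher. Sqle, which makes the epoxide that is closed into the sterol rings, had 316 and 245 in spleen and 919, 1000.3 and 645 in lung (difference 1.59 ± 0.27). Cyp51, a demethylase later in the pathway, had 642 and 544 in spleen and 1514, 1712 and 1098 in lung (difference 1.26 ± 0.20).

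Lysosomal and autophagy genes were higher in 26 of 36 cases and lower in 2 (median 0.81). Lgmn, a protease that processes antigen, had 837 and 624 in spleen and 3572, 3314 and 3193 in lung (difference 2.21 ± 0.23). Npc2, which moves cholesterol out of lysosomes, rose by 1.25 ± 0.13. Atp6v0d2, a proton pump subunit typical of alveolar macrophages and osteoclasts, rose from 1.79 and 5.08 to 183, 236 and 164, 1.09% of the alveolar macrophage mean. The 2 lower genes, named for that reason, were Tfeb (-0.41), a transcription factor of lysosomal genes, and the galactosidase Gla (-0.99).
The promoter of Lamp1 (chr8:13158911-13159210, plus strand, GRCm38.p6, RefSeq), a lysosomal membrane protein named after its values were seen, is shown for its 4 copies of the E-box CACGTG, in capitals, the core of the element that TFEB-type factors bind.
Lamp1: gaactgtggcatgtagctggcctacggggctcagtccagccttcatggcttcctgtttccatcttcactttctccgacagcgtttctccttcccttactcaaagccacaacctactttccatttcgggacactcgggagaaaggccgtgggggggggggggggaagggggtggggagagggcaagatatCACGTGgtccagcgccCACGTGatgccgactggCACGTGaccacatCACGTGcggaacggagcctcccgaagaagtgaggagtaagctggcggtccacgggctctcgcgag
Lamp1 had 3119.7 and 3509 in spleen and 5782, 5484 and 5728 in lung (difference 0.78 ± 0.15, adjusted p = 0.000275). An E-box stood in 8 of 28 promoters of this list, against 10.4% of all tested promoters, 10.9% of those of genes higher in lung and 8.96% of those lower.

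Costimulatory and coinhibitory ligands moved in both directions, with 10 of 28 higher and 7 lower (3 lower without spleen library 6). The shares of 35.7% higher and 25% lower compare with 23% and 15.1% over all genes tested. The median of 0.175 became -0.0155 without spleen library 6 and 0.5 without lung library 11. Slamf9 had 109 and 99 in spleen and 2600, 2674 and 2328 in lung (difference 4.60 ± 0.18), and Tnfsf9, the ligand of 4-1BB, 322 and 116 in spleen and 4079.9, 2750.2 and 1577 in lung (difference 3.75 ± 0.46). Cd274, which encodes the inhibitory ligand PD-L1, fell from 3428 and 2817 to 1234, 1063 and 1139 (difference -1.44 ± 0.18, adjusted p = 8.86e-07). Cd274 thus moved opposite to Slamf9 and Tnfsf9. Of 33 antigen presentation genes 9 were higher and 11 lower (median -0.246, and -0.0723 without spleen library 6). The share higher (27.3%) was near the 23% over all genes tested, and the share lower was 33.3% against 15.1%. Psmb9, an interferon-inducible proteasome subunit, fell from 1572 and 1709.7 to 567, 695 and 796 (difference -1.27 ± 0.13), and the folding chaperone Calr rose from 1896 and 1709.7 to 3568, 3341 and 4159.7 (difference 1.03 ± 0.10).

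Among 53 transcription factors 23 were higher and 7 lower in lung (median 0.405, and 4 lower without spleen library 6). Cebpb, a factor of inflammatory myeloid cells, had 571 and 741 in spleen and 4372, 4414 and 7616 in lung (difference 3.02 ± 0.20), highest in library 11. Cebpa had 65.5 and 29.6 in spleen and 375, 319 and 331 in lung (difference 2.92 ± 0.20). Xbp1, a factor of secretory capacity, rose by 1.22 ± 0.10. Batf3, needed by CD8a-type DCs, fell from 538 and 666 to 247, 284 and 334 (difference -1.06 ± 0.18).

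Genes of hypoxia response and glycolysis were higher in 16 of 37 cases and lower in 2 (median 0.435). Slc2a1, the glucose transporter GLUT1, had 171 and 167 in spleen and 589, 572 and 541 in lung (difference 1.74 ± 0.12), the lactate exporter Slc16a3 79 and 66 in spleen and 563, 479 and 677 in lung, and Aldoa, a glycolytic enzyme, rose by 1.17 ± 0.10. Of 59 subunits of oxidative phosphorylation 1 was higher and 7 lower, below the share over all genes in either direction, with a median of -0.0245. None was lower without spleen library 6 (median 0.102), 2 without lung library 10 and 1 over these 5 libraries alone. Cytosolic ribosomal protein genes were lower in 20 of 58 cases and higher in none (median -0.238), such as Rpl4 (13646 and 14528 in spleen, 10867, 10666 and 11521 in lung, difference -0.35 ± 0.09, a call lost without spleen library 6). The count of lower genes was 2 without spleen library 6, 12 without lung library 9, 6 without lung library 10 and 10 over these 5 libraries alone.

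Cell cycle and replication genes were lower in 24 of 44 cases and higher in 2, with a median of -0.754. Without spleen library 6, 9 were lower. Pcna, the replication clamp, had 1263 and 1327 in spleen and 687, 590 and 705 in lung (difference -0.97 ± 0.12), and Mcm2, part of the replicative helicase, 979.8 and 1081 in spleen and 429, 516 and 476 in lung (difference -1.12 ± 0.20). Mki67, a proliferation marker named after its values were seen, was 2609 and 3356 in spleen and 2019, 1753 and 1832 in lung (difference -0.67 ± 0.17). The 2 higher genes were Ccnd2 (1.39) and Cdk6 (1.33), which act in early G1.

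Mtor, the gene deleted in the KO mice, was not called between WT tissues, with 396 and 355 in spleen and 476, 364 and 397 in lung (difference 0.13 ± 0.24, adjusted p = 0.709). Of 39 genes of the mTOR complexes and their signalling, 10 were higher and 4 lower (median 0.111, and 0.049 without spleen library 6). These shares of 25.6% and 10.3% were near the 23% and 15.1% over all genes tested. Eif4ebp1, a translation repressor that mTOR phosphorylates, had 255 and 304 in spleen and 668, 633 and 959 in lung (difference 1.41 ± 0.16), Sgk1, a kinase downstream of mTOR complex 2, 912 and 882 in spleen and 3922, 2986 and 2337 in lung (difference 1.75 ± 0.20), and Deptor, an inhibitor of mTOR, rose by 1.34 ± 0.21.

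Other genes with the largest or most certain rises came from no single list. Fcrls, an Fc receptor-like scavenger known from microglia, had 6.28 and 5.92 in spleen and 1409, 1599.8 and 1293 in lung (difference 7.65 ± 0.47). Trem2, a lipid-sensing receptor of macrophages, had 1 read in spleen and 216, 226 and 244 normalized counts in lung, a ratio of 529-fold (95% counting interval 94.6 to 20900). The serine protease Htra3 (3 reads in spleen) stood at 349, 405 and 429.7 in lung. Pmp22, a membrane protein of myelin, and Nes, the intermediate filament nestin, were at 0 in spleen and at least 127-fold and at least 117-fold higher in lung. Capg, which caps actin filaments, had 51.1 and 65.2 in spleen and 2364, 2465 and 2476 in lung (difference 5.37 ± 0.18, adjusted p = 7.19e-16), and Olfm1 424 and 278 in spleen and 6228, 6566 and 5097 in lung (difference 4.10 ± 0.15).

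Of these 18 genes with the largest rises or the smallest p among rises, 14 had a higher mean in lung DCs than in WT alveolar macrophages. The 4 others were Trem2, Itga5, Capg and Lrp1, whose lung DC means were 89.5%, 87.7%, 31.1% and 40.6% of the macrophage means. For Fcrls the means were 1434 in lung CD11b DCs against 19 in alveolar macrophages and 293 in inflammatory DCs, and for Htra3 they were 394, 167 and 16.5. The inflammatory DC mean exceeded the lung CD11b DC mean for Ccl17, Retnla, Ccl7, Mmp13, Trem2, C3ar1 (4601 against 1389), Itga5, Capg and Lrp1. It was the lower of the 2 means for Sftpc, Fcrls, Il1r1, Htra3, Pmp22, Nes, Socs3, Cd14 and Olfm1. The ratio for Mmp13 was 597-fold (95% counting interval 107 to 23600) and that for Htra3 305-fold (95% counting interval 104 to 1480).

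Genes with the largest falls were nearly silent in lung. Scn3a, a voltage-gated sodium channel, had 761 and 662 in spleen and 4.33, 4.23 and 0.806 in lung (difference -7.59 ± 0.80, adjusted p = 7.94e-08). The potassium channel Kcnj16 had 257 and 244 in spleen and 3 reads over the lung libraries, a ratio of 259-fold (95% counting interval 88.2 to 1260). Cdhr3 and Cdh17, both of the cadherin family, fell from 231 and 263 to 3.25, 2.11 and 0 and from 190.2 and 218 to 1.08, 6.34 and 0. The zinc finger factor Zfp521 and the ion channel Cnga3 were at 0 in every lung library and at least 84.9-fold and at least 67.7-fold higher in spleen, although the Cnga3 call was lost with DESeq2 (adjusted p = 0.117). Slc44a5, Cdcp1 and Dzip1 rested on 1, 3 and 1 lung reads, and were 520-fold (95% counting interval 92.8 to 20600), 158-fold (95% counting interval 53.8 to 772) and 255-fold (95% counting interval 45.1 to 10100) higher in spleen.

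The falls also included Rundc3b (224 and 216 in spleen, 10.8, 3.17 and 0 in lung) and Lysmd2 (503 and 633 in spleen and 9.75, 3.17 and 18.5 in lung). Ffar2, a receptor for short-chain fatty acids, had 1638 and 2085 in spleen and 30.3, 49.7 and 33.9 in lung (difference -5.60 ± 0.32, adjusted p = 2.28e-12). Smaller but steady falls were those of Rogdi (5735 and 6348 in spleen and 1458, 1639 and 1401 in lung, difference -2.01 ± 0.14), Lyst, a regulator of lysosome size (difference -2.31 ± 0.17), and Rgs2, which damps G protein signals (difference -1.68 ± 0.12). The level in spleen CD8a DCs was near that in spleen CD11b DCs for some of these genes and not for others: Kcnj16 had a mean of 257 there against 250.2 in spleen CD11b DCs, whereas Scn3a had 50.4 against 711, Clec4a4 93.7 against 1821 and Cdhr3 10.7 against 247.

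**Figure D4:**
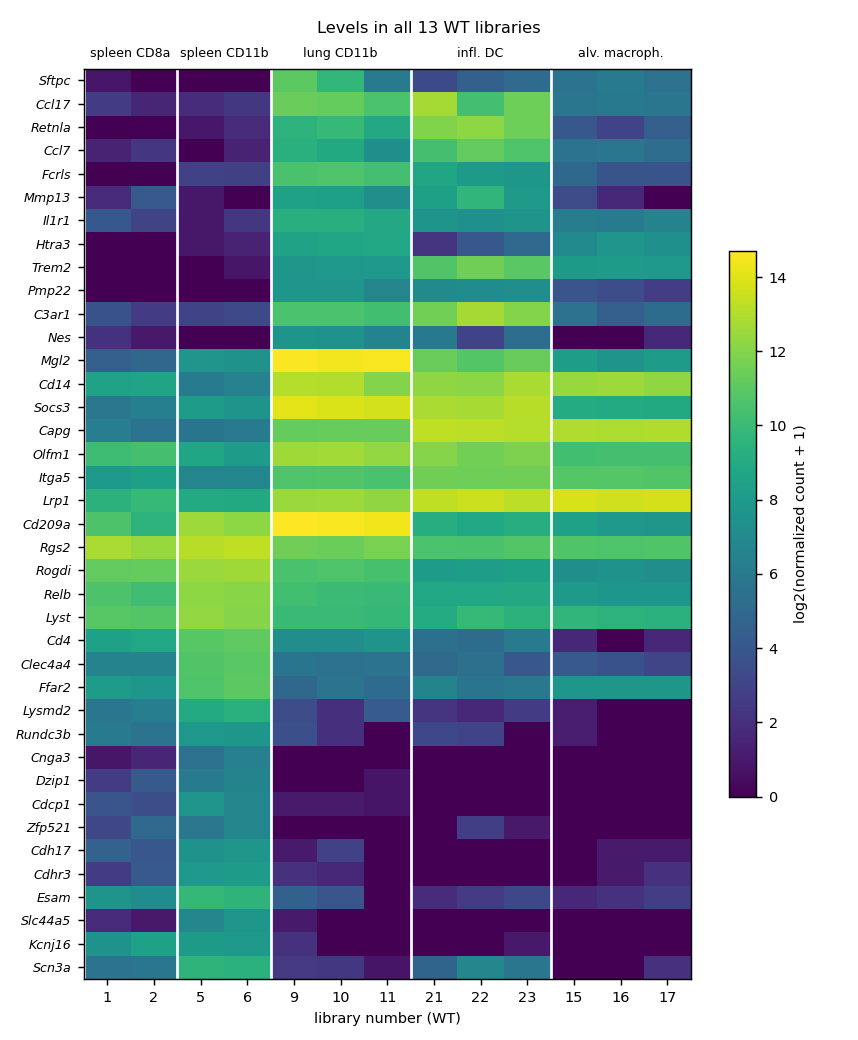
Level of the genes with the largest or most certain differences, with Mgl2, Cd209a and Cd4, in each of the 13 WT libraries (columns, by number, grouped by population), coloured by log2(normalized count + 1), with genes ordered by the lung minus spleen difference. Mgl2 and Cd209a are brightest in lung CD11b DCs, while Scn3a, Cdhr3 and Slc44a5 are brightest in spleen CD11b DCs.

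The same contrast was read in the KO libraries, 3 of lung and 2 of spleen, which share no sample with the WT comparison. Mtor in them stood at 63.0 and 82.6 in spleen and at 297, 316 and 169 in lung, lower than every WT library in both tissues, but nearer to the WT level in lung. There 2866 genes were higher in lung (23.8%) and 2622 lower (21.7%). Of the genes higher in WT lung 1762 were also higher in KO lung, 63.5% of the WT set and 61.5% of the KO set. Of those lower, 1050 were lower in both, 57.7% of the WT set and 40% of the KO set. Opposite calls were made for 67 genes higher and 67 genes lower in WT lung. Among the 51 genes named for their role, size or p, 47 were called in WT, of which 44 were called with the same sign in KO. The sexes of the KO libraries were mixed: the Y-linked sums were 932 and 3295 in spleen and 1318, 0.821 and 1.35 in lung, against at most 1.61 in WT, and their part in any difference between genotypes was not tested.

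The tissue contrast itself differed between genotypes for 1650 genes by an interaction test, including 955 of the 4593 called in WT (20.8%). The count of 1650 became 808 without WT spleen library 6, and 1019 and 920 without KO spleen library 7 or 8. Interferon-stimulated genes, of which 21 of 38 were lower in WT lung, were higher in 30 of 38 cases in KO lung and lower in none, with a KO median of 1.36. Ifit2 had a WT difference of -2.0 and a KO difference of 1.57 (interaction adjusted p = 5.15e-05), and Usp18 -1.45 and 0.90 (0.000662). Cd274 went from -1.44 in WT to 0.28 in KO (0.000176), and Jund from 1.33 to -0.03 (0.000139). The immediate-early and heat-shock list, with 20 higher and 1 lower in WT, had 8 higher and 11 lower in KO. Chemokine ligands were higher in 21 of 24 cases in both genotypes, and cell cycle genes lower in 24 of 44 in WT and 35 of 44 in KO.

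**Figure D5:**
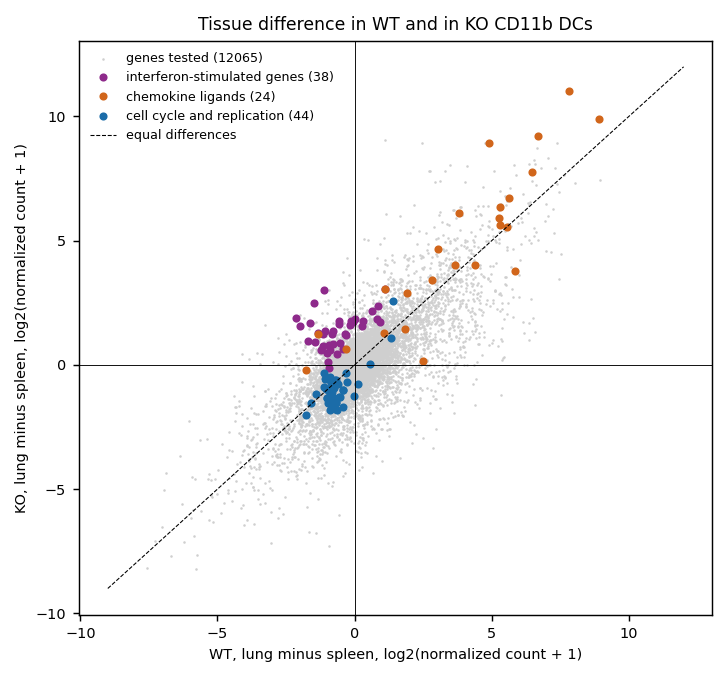
Lung minus spleen difference in KO (y axis) against WT (x axis) CD11b DCs, both as log2(normalized count + 1), for the 12065 genes tested (grey) and 3 lists (coloured); the dashed line marks equal differences. Interferon-stimulated genes (purple) lie mostly left of 0 in WT and above 0 in KO, chemokine ligands (orange) mostly at the upper right and cell cycle genes (blue) mostly at the lower left.

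The other motifs searched in promoters on both strands are given as shares of promoters, with no test. AP-1 (TGANTCA) stood in 6.23% of genes higher in lung, 5.36% of those lower and 5.02% of all. It stood in 10.5% of those over 16-fold higher (20 of 191) and 11.8% of those over 16-fold lower (6 of 51), which are small counts. PU.1 (GAGGAAG) stood in 15.9%, 14.2% and 13.7% of genes higher, lower and tested, the Notch partner RBPJ (GTGGGAA) in 6.32%, 6.17% and 6.16%, CRE (TGACGTCA) in 2.75%, 3.26% and 3.27%, and the SMAD palindrome GTCTAGAC in 0.181%, 0.271% and 0.227%. These windows are short, and absent letters say nothing about a factor.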

How the data were processed

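RNA was sequenced from 26 libraries of sorted mouse cells, of which the 5 of WT CD11b DCs carry the comparison. The tools named in the submitters' processing notes are STAR 2.3.1s, HTSeq and DESeq2 1.10.1, with mm10 as the build. The deposited signal values are read counts divided by 1 size factor per library by the authors. The HTSeq version, the annotation and the strand setting are not given in the sources used here, so reads of overlapping or antisense genes and of near-identical copies cannot be told apart. Per the labels, RNA integrity numbers were above 8.5.

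Genes with a normalized count of at least 10 in at least 2 of the 5 libraries were tested, 12065 of 23420. A list member near 0 in 1 tissue passes this filter only where the other tissue is higher, which bears on the counts of such lists. limma 3.58.1 (R 4.3.3, moderated test with trend) was fitted to log2(normalized count + 1) as 10 group means over all 26 libraries, so that the groups share 1 estimate of the spread, and p-values were adjusted by Benjamini-Hochberg over all genes tested, with a threshold of 0.05. A fold change on this scale understates that of low genes. A permutation test of 3 against 2 libraries cannot give a two-sided p below 0.2 and was not used. The script was tested on simulated data with 200 changed genes per draw, far fewer than were called here. It recovered 52.6% of the 2-fold and 83% of the 4-fold changes, and 6.61% of its calls were unchanged genes. A gene that was not called may therefore still differ. Whole reads were recovered by dividing each library by its smallest value (all values whole within 1e-06), and served for edgeR 4.0.16 and DESeq2 1.42.0 as alternatives and for genes at or near 0. Such genes are given as a bound against 3 reads over the group, or with a 95% interval that covers counting error only.

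The members and the 46 gene lists were chosen with earlier results of these data known. Named genes were 17 of set role, the 12 largest rises and falls and the 6 smallest p in each direction (no overlap between tissues, mean of at least 50 in the higher group), and up to 5 called members of each list with the smallest p. Lists are described by counts and medians, with no test. Gene positions are from the GENCODE annotation of GRCm38, in which 11978 of the 12065 genes were found, and promoters from RefSeq (GRCm38.p6), where 9708 of the 12065 genes had one. Of these, 1960 had more than 1 listed start, and the one listed first was used. Alternatives were the pseudocount, the filter, TMM scaling, fewer libraries in the fit, library weights, edgeR, DESeq2, and leaving out each library. A few genes that the rule names are not reported here.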

Additional observations from a re-analysis of the deposited data

Results flagged for a closer look

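For 15 of the genes named by role, size or p the lung minus spleen difference itself differed between WT and KO by limma's interaction contrast, given here as WT minus KO with its adjusted p. The KO libraries were of mixed sex and the WT libraries were not, and the part of sex was not tested.

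Among receptors that shape DC and monocyte growth, Flt3 differed by 2.55 (adjusted p = 0.00451), with a difference of -1.0 in WT and -3.55 in KO. Csf1r differed by 0.72 (adjusted p = 0.0184), Notch2 by 0.74 (0.018) and Csf2rb by -0.41 (0.0434). The lectin Cd209a, higher in WT lung by 2.17, had a KO difference of -0.37, so that the contrasts differed by 2.55 (adjusted p = 0.00531).

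Mtor, the gene lost in the KO, had differences of 0.13 in WT and 1.79 in KO, which differed by -1.66 (adjusted p = 0.0029). Il1r1 was raised more in WT, by 4.03 (adjusted p = 0.000154), as was the signalling suppressor Socs3, by 1.83 (0.000225). Lrp1 and Olfm1 differed by 0.89 each (0.00199 and 0.00729) and Lyst by 0.92 (0.0123). Capg was raised less in WT, with -1.07 (0.00798). Ccl7 (-3.21, 0.0278), Trem2 (-1.53, 0.0193) and Dzip1 (-3.80, 0.0269) rest on 1 or 2 reads in the lower WT tissue, and their values depend on the pseudocount.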

How the results depend on the processing

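Over 15 alternatives for the WT comparison the number of called genes ran from 3167 to 4999 around 4593, and no gene called in the comparison was called with the other sign in any of them. The number lower in lung ran from 1038 to 1718 when each library was left out, with 1212 without spleen library 5 and 1038 without spleen library 6. Without one of these the remaining spleen library is assumed to vary like the other groups. With these 5 libraries alone 3639 genes were called, with edgeR 4599 and with DESeq2 4754. The interaction with genotype, left out library by library as a choice made after seeing the data, ran from 808 to 2461 genes around 1650, with 1019 and 920 without KO spleen libraries 7 and 8. Of 220 named genes 23 lost their call in some alternative and none reversed. The list counts of at least 5 calls gave 735 values, 1 for each count under each alternative. Of these values 37 moved by over 1.5 times, 14 of them in the single alternative without spleen library 6. At a minimum of 50 counts fewer members were tested, and alveolar macrophage markers higher in lung went from 20 to 13, epithelial from 11 to 7, stromal from 11 to 4 (7 with DESeq2) and matrix protease genes from 13 to 8. Library numbers run through the series, and the labels do not link libraries to mice. Whether a lung and a spleen library came from the same mouse is thus unknown, and no paired analysis was possible. The depth of 9.11 to 11.5 M reads limits what can be said of genes with few reads in 1 tissue.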
